A study of Mus musculus with 8 samples.

Results

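The genes described here encode the voltage-gated calcium channels and the proteins that read the calcium they admit: 46 genes chosen by family, measured by 121 of the 56605 probes on Agilent mouse arrays and forming 46 of the 37074 gene names on them. They comprised 9 pore-forming subunits, 4 alpha2delta, 4 beta and 7 gamma subunits, 2 calmodulins, 12 genes of the calmodulin kinases and their regulators, 5 calcium release channels of the endoplasmic reticulum and 3 calcineurin genes. A probe counted as a member's by the gene name printed beside it on the arrays. RNA came from cerebral cortex and striatum, dissected as 1 sample per mouse, of 4 male C57BL/6J mice (B6) and 4 male BTBRTF/ArtRbrc mice (BTBR/R, an inbred strain studied for autism-related behavior), untreated, with each mouse on an array of its own. BTBR/R replicate 1 was 6 months old and the other mice 4 months. The arrays lay on 1 slide, with B6 in column 1, BTBR/R in column 2 and mice of the same replicate number in the same row. An effect of the column cannot be told apart from one of strain.

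A voltage-gated calcium channel is built on a pore-forming alpha1 subunit that opens when the membrane depolarizes. Beta subunits bind it from the cytoplasm, and alpha2delta subunits bind it from outside, and both help it reach the membrane and set its gating. Calcium that enters binds calmodulin, which in neurons switches on the calmodulin kinases and the phosphatase calcineurin, while ryanodine and inositol trisphosphate receptors release further calcium from internal stores. In the cortex and striatum these proteins couple electrical activity to transmitter release, synaptic plasticity and transcription.

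Each probe is a 60-base oligonucleotide, and many of the genes are read by several probes at different places. The first 30 bases of 8 probes are given because the strain difference was large at some of them and small or opposite at another probe of the same gene. Letters are in lower case throughout and positions are those of the whole probe in mm9, as given with the arrays.

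Cacnb2, changed probe (chr2:14908952-14909011, plus strand): ggaatggacaatctttgggtgtcagagtat
Cacnb2, brightest probe (chr2:14884906-14884965, plus strand): ggagtccctcttgttaagcttgttttgaaa
Cacna2d2, changed probe (chr9:107429535-107429678, plus strand): ggtccgcacatctgttttgactacaatgcg
Cacna2d2, brightest probe (chr9:107431245-107431304, plus strand): tgtcagctgtgtcctgtgggggcgtgtgtg
Cacna2d1, changed probe (chr5:15774333-15774392, plus strand): ggaatagcttaaaatgttatccttggcaga
Cacna2d1, brightest probe (chr5:15880152-15880211, plus strand): ccttattatgttctctggacacttttgtgg
Camk1d, changed probe (chr2:5230800-5230859, minus strand): ttaattaaggaggagaaagttctcctaagg
Camk1d, brightest probe (chr2:5214566-5214625, minus strand): ggtctatgtagcaaatgattctctgccttg

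The changed Cacna2d2 probe covers 144 bases of the genome with its 60 bases, so its ends lie on either side of a gap. The other 7 cover 60 bases each. The 8 called probes described below held between 35% and 55% of G and C (median 42.5%), against a median of 43.3% over the 121 member probes.

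The scaled signal of a probe is its background-corrected intensity on the log2 scale, set relative to the 75th percentile of its array, and changes are BTBR/R minus B6 on that scale. A probe was called when its limma adjusted p was below 0.05 and it changed at least 2-fold, and detection on an array follows the scanner software's flag for signals well above background. B6 arrays detected 64.5% to 66.8% of all probes and BTBR/R arrays 53.5% to 57.2%, and the dimmest signal flagged as detected was 14.5 to 17.8 on the former and 36.1 to 47.1 on the latter. All marker genes of cortical excitatory neurons (7), striatal projection neurons (8) and interneurons (6) were detected on all 8 arrays by their brightest probes and none was called. Fezf2 (0.32) was higher and Rorb (-0.39) and Vip (-0.23) were lower at an adjusted p below 0.05, and the others did not pass. Summed scaled signals were 6.88 to 6.96 in B6 mice and 6.97 to 7.02 in BTBR/R mice for interneurons, without overlap. They overlapped for cortical excitatory neurons (4.66 to 4.88 and 4.75 to 4.94) and striatal projection neurons (7.54 to 7.63 and 7.45 to 7.65). The summed scaled signal of markers was 5.83 to 5.98 in B6 mice and 5.62 to 5.81 in BTBR/R mice for astrocytes, 5.56 to 5.62 and 5.35 to 5.48 for microglia, and 3.98 to 4.08 and 3.64 to 3.87 for endothelial cells. It was 7.56 to 7.90 and 7.42 to 7.58 for oligodendrocytes, and for choroid plexus it spread from 1.41 to 5.35 in B6 mice and from 2.60 to 4.67 in BTBR/R mice. Of the microglia markers, Cx3cr1 (-0.71), C1qa (-0.35) and Aif1 (-0.25) were lower at an adjusted p below 0.05 and P2ry12 (0.22) was higher. Tmem119 (0.10) and Csf1r (-0.03) did not pass. In these bulk samples a change in the number of cells of a type and one in RNA per cell cannot be told apart. Of 12 immediate early genes, which neurons switch on with calcium entry and activity, 8 were called higher in BTBR/R mice at their brightest probes. Over all probes detected on all 8 arrays 1.04% were called higher, and the 12 genes were listed with earlier results of these data known. The summed signal of the 12 was 5.18 to 6.49 in B6 mice and 7.04 to 7.30 in BTBR/R mice. The part of these differences in the results below was not tested.

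Most members differed little between the strains. Of the 121 member probes, 91 (44 genes) were detected on all 8 arrays, and of these 1 was called higher in BTBR/R mice, Cacna2d2, and 1 lower, Cacnb2. The first was not called with normexp background correction. Over all probes detected on all 8 arrays, 1.04% were called higher and 1.16% lower. At an adjusted p below 0.05 of any size, 13 member probes were higher and 14 lower, together 27 of 91 beside 26.9% of all such probes (13.0% higher and 13.9% lower). With spike-in scaling these counts were 20 and 5, with a replicate block 9 and 9, and 10 and 9 with dim signals floored and also without B6 replicate 2. Of the 27 probes, 13 passed under every alternative and with each mouse left out. The median change of the 91 was 0.04 and their median absolute change 0.13, beside 0.00 and 0.12 over all probes detected on all 8 arrays. The groups did not overlap at 36 of the 91 probes (39.6%), beside 32.6% of all. These shares were near the background.

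**Figure D1:**
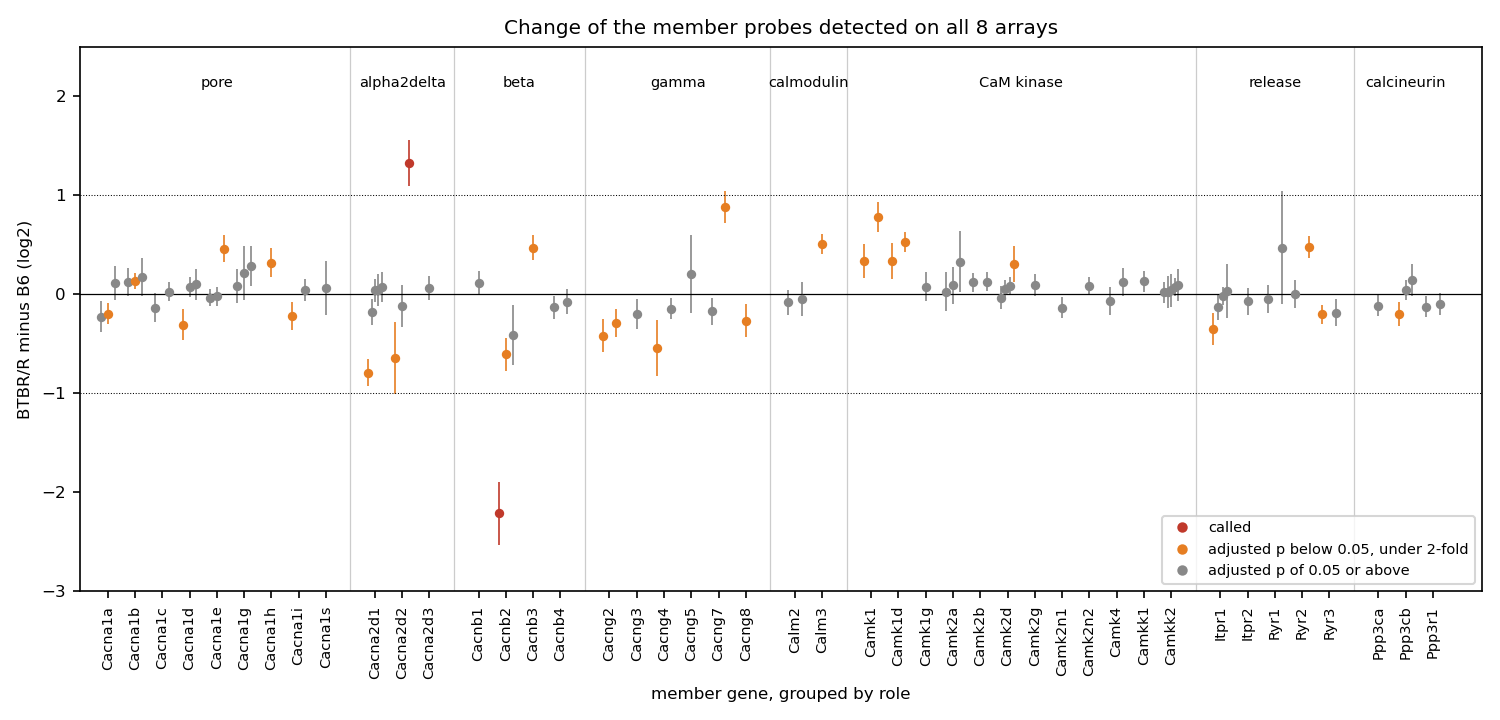
Change (BTBR/R minus B6, log2) of the 91 member probes detected on all 8 arrays, one point per probe, with genes on the horizontal axis grouped by role and bars of 2 standard errors. Dotted lines mark 2-fold; the called probes are Cacna2d2 at 1.33 and Cacnb2 at -2.21, and every other probe lies between the dotted lines.

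Among dimmer probes, detection differed between the strains. Of the 121 probes, 19 were detected on every B6 array but not on every BTBR/R array, and 6 of these were called lower in BTBR/R mice, against 12.6% of all probes of that kind. None was in the opposite class, detected on every BTBR/R array but not on every B6 array. A further 6 member probes were detected on no array, and 2 of them were called higher, a Camk2b and an Itpr2 probe, against 67.7% of all probes detected on no array. The remaining 5 were detected on some arrays, and 1 of them, for Cacna1h, was called higher (1.20), against 15.7% of all such probes. In all, 11 member probes were called, against 22.4% of all 56605 probes, and the 3 just named were not detected on every array of either strain. The called changes described below are the other 8, in 7 genes, of 110 member probes detected on every array of a strain, a kind of which 1.03% were called higher and 3.38% lower over the whole array. Since 6 of them entered only through the B6 arrays, on which they were brighter, no direction is read from their number. The called probes of Cacna2d1, Camk1d, Camk2b and Ryr3 and the dimmer one of Cacnb2 are listed with an Ensembl or other transcript name in place of a RefSeq accession, and which transcripts they read was not checked here.

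**Figure D2:**
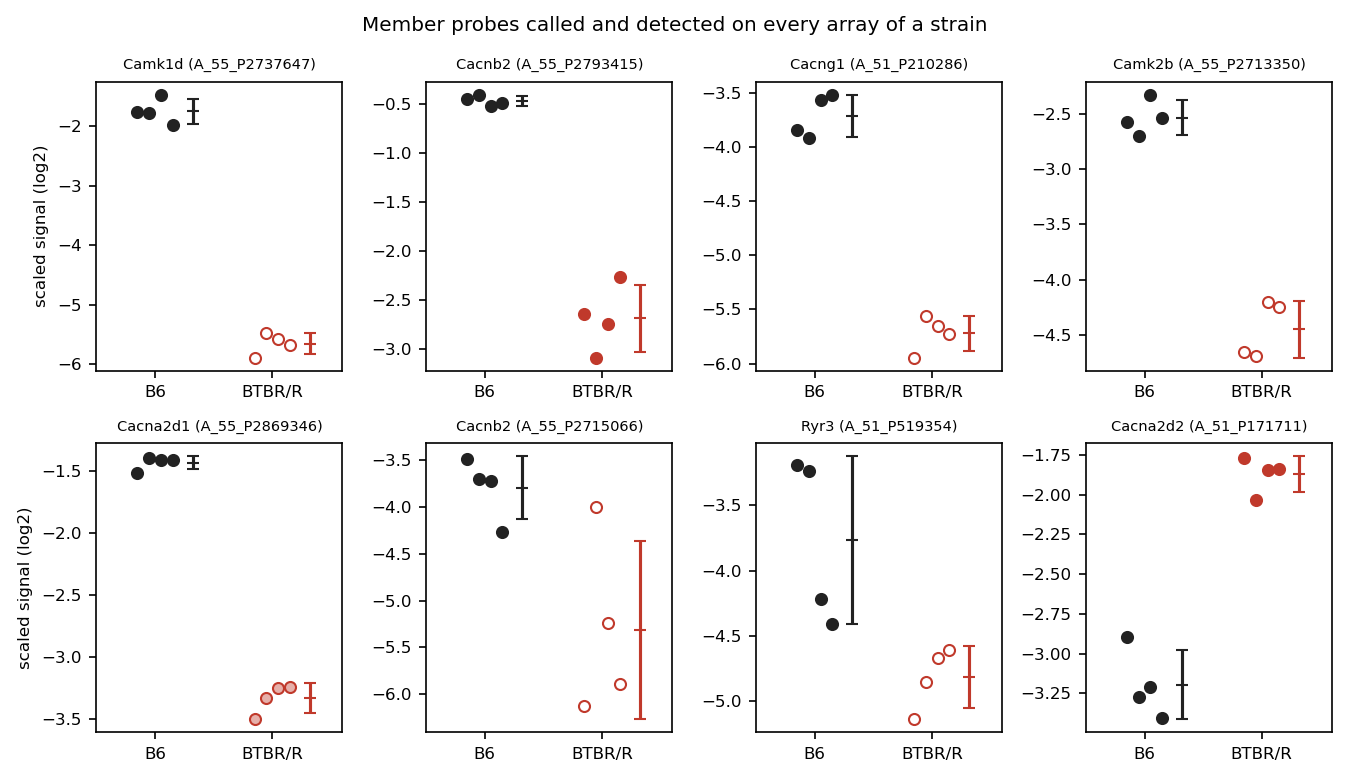
Scaled signal (log2) in each mouse at the 8 member probes that were called and detected on every array of a strain, with the mean and SD beside the points. Filled points are from strains in which every array detected the probe, open points from strains in which none did, and pale points from a strain in which 3 of 4 did; the groups overlap at a Cacnb2 probe (A_55_P2715066) and at no other.

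The pore-forming subunits carried no called probe among those detected on every array of a strain. Their 21 probes detected on all 8 arrays gave changes of -0.31 to 0.46. At an adjusted p below 0.05, 3 of them were higher and 3 lower, near the 13.0% and 13.9% of all such probes. These counts were 4 and 0 with spike-in scaling and 3 and 1 with normexp background correction. The brightest probe of Cacna1e, the R-type channel that supports transmitter release and dendritic calcium signals, read 1.61, 1.54, 1.72 and 1.77 in the B6 mice and 2.15, 2.02, 2.16 and 2.17 in the BTBR/R mice. Every BTBR/R mouse was above every B6 mouse, and the change was 0.46 (SE 0.07, limma adjusted p = 0.0012). At the other Cacna1e probes with detection on every array the change was -0.03 and -0.02, neither passing, and a dimmer probe, which entered through the B6 arrays and was detected on 1 BTBR/R array, gave -0.44 (adjusted p = 0.013).

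Cacna1h, a low-threshold T-type channel, read -1.66, -1.58, -1.55 and -1.64 in the B6 mice and -1.30, -1.11, -1.43 and -1.31 in the BTBR/R mice at its brightest probe. The groups did not overlap, and the change was 0.32 (SE 0.07, limma adjusted p = 0.011). The other probes that passed were 1 of 3 of Cacna1b (0.13), the N-type channel of nerve terminals, 1 of 3 of Cacna1d (-0.31), an L-type channel, 1 of 2 of Cacna1i (-0.22), a T-type channel, and 1 of 3 of Cacna1a (-0.20). The other Cacna1d probes gave 0.07 and 0.10, and the other Cacna1i probe, its brightest, gave 0.04. With spike-in scaling the negative changes did not pass (Cacna1d -0.19, Cacna1i -0.10, Cacna1a -0.08), Cacna1b did not pass without any one of the 8 mice, and Cacna1i and Cacna1a were each lost when single mice were left out (6 and 5 of the 8). The brightest Cacna1a probe, for the P/Q-type channel that drives release at most central synapses, gave 0.11 (adjusted p = 0.35), from values of 2.60, 2.61, 2.62 and 2.71 in the B6 mice and 2.74, 2.52, 2.87 and 2.86 in the BTBR/R mice. BTBR/R replicate 2 was the lowest of all 8 mice at this probe and the other 3 BTBR/R mice were above every B6 mouse. Without that mouse the change was 0.19 (adjusted p = 0.046). Cacna1c, the main L-type channel of brain, read 2.75, 2.70, 2.71 and 2.83 in the B6 mice and 2.73, 2.78, 2.82 and 2.77 in the BTBR/R mice, so that the strains overlapped (0.03, SE 0.05). Cacna1s, the pore of skeletal muscle channels, was detected on all 8 arrays and gave 0.06 (adjusted p = 0.74), and Cacna1g, a T-type channel of thalamus and cortex, gave 0.08 to 0.29 on 3 probes with none passing.

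The alpha2delta subunits, which include the binding sites of the gabapentin drugs, held a called probe in 2 of 4 genes. That of Cacna2d2 was detected on all 8 arrays, where 1.04% of all probes were called higher, and that of Cacna2d1 on every B6 array but not on every BTBR/R array, where 12.6% were called lower. The Cacna2d2 probe that was called read -2.90, -3.27, -3.21 and -3.41 in the B6 mice and -1.77, -2.03, -1.84 and -1.84 in the BTBR/R mice. The strains were separated by more than the spread within either, and BTBR/R mice were 2.51-fold higher (1.33, SE 0.12, limma adjusted p = 5.7e-05), a change that was 0.80 and not called with normexp background correction. The other Cacna2d2 probes did not rise. The brightest, 1.71 kb further along the gene, gave -0.12 (adjusted p = 0.41), and one 101 kb upstream fell (-0.64, SE 0.18, adjusted p = 0.028), with values between -2.81 and -2.07 in the B6 mice and between -3.36 and -2.97 in the BTBR/R mice. That fall was lost with dim signals floored and without B6 replicate 2 or BTBR/R replicate 3 or 4. The called probe differed from the others of its gene by 1.70 (limma's test of one probe against the others, adjusted p = 7.7e-08).

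Cacna2d1 changed in the opposite direction and at one place in the gene. The called probe read -1.51, -1.40, -1.42 and -1.41 in the B6 mice and -3.50, -3.33, -3.25 and -3.24 in the BTBR/R mice, of which 3 were well above background. BTBR/R mice were 3.71-fold lower by the measured signals (limma adjusted p = 5.2e-06). A neighbouring probe, which begins 0.203 kb upstream and is listed with the same transcript, also fell: it read -0.77, -0.65, -0.75 and -0.66 in the B6 mice and -1.36, -1.62, -1.55 and -1.47 in the BTBR/R mice (-0.79, SE 0.07, adjusted p = 4.5e-05). The 3 probes further downstream gave 0.04 to 0.07, and the probe 239 kb upstream of the called one gave -0.18, none passing the test. Cacna2d3, studied in hearing and pain, gave 0.06 (adjusted p = 0.48). Cacna2d4, best known from the retina, was detected on every B6 array and on some or no BTBR/R arrays at its 2 probes, which did not pass the test (0.34 and 0.55).

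Among beta subunits Cacnb2, which partners L-type channels in heart and brain, was measured on all 8 arrays by 3 probes, of which 2 were lower in BTBR/R mice and 1 did not pass the test. At the changed probe whose bases are given above it read -0.46, -0.41, -0.52 and -0.50 in the B6 mice and -2.64, -3.09, -2.74 and -2.26 in the BTBR/R mice. All 4 BTBR/R mice were well above background and below the B6 range, a 4.64-fold fall (-2.21, SE 0.16, limma adjusted p = 2.8e-05). The brightest probe, 24.0 kb upstream, read -0.38, -0.72, -0.60 and -0.65 in the B6 mice and -1.10, -1.31, -1.17 and -1.20 in the BTBR/R mice. These groups did not overlap either, and the fall was smaller (-0.61, SE 0.09, adjusted p = 0.0009).

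Another Cacnb2 probe, detected on all 8 arrays, gave -0.41 (adjusted p = 0.065). A dimmer one, which entered through the B6 arrays alone, was called at -1.52 (SE 0.46, adjusted p = 0.035) but was detected on no BTBR/R array, where it read -6.13, -4.00, -5.24 and -5.89 against -3.48, -3.70, -3.72 and -4.27 in the B6 mice. BTBR/R replicate 2 lay within the B6 range there, the B6 mean did not exceed the mean BTBR/R detection limit, and no fold is given. With dim signals set to the highest detection limit the change was -0.02 (adjusted p = 0.73), and the call was also lost when any of 6 mice was left out (B6 replicates 1, 2 and 3 and BTBR/R replicates 1, 3 and 4). The fifth Cacnb2 probe, detected on no array, gave 0.73 (adjusted p = 0.0021). Over the probes detected on all 8 arrays, the called Cacnb2 probe fell further than the others by 1.70 (a difference of -1.70, adjusted p = 5.3e-08).

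The other beta subunits had no called probe. Cacnb3, a partner of N-type and L-type channels in brain, rose at its only probe: it read 2.60, 2.71, 2.62 and 2.74 in the B6 mice and 3.05, 3.27, 3.09 and 3.14 in the BTBR/R mice. The strains did not overlap (0.47, SE 0.06, adjusted p = 0.0007). Cacnb1, the beta subunit of muscle, gave 0.11 and Cacnb4, prominent in cerebellum, gave -0.13 and -0.08, and these did not pass.

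**Figure D3:**
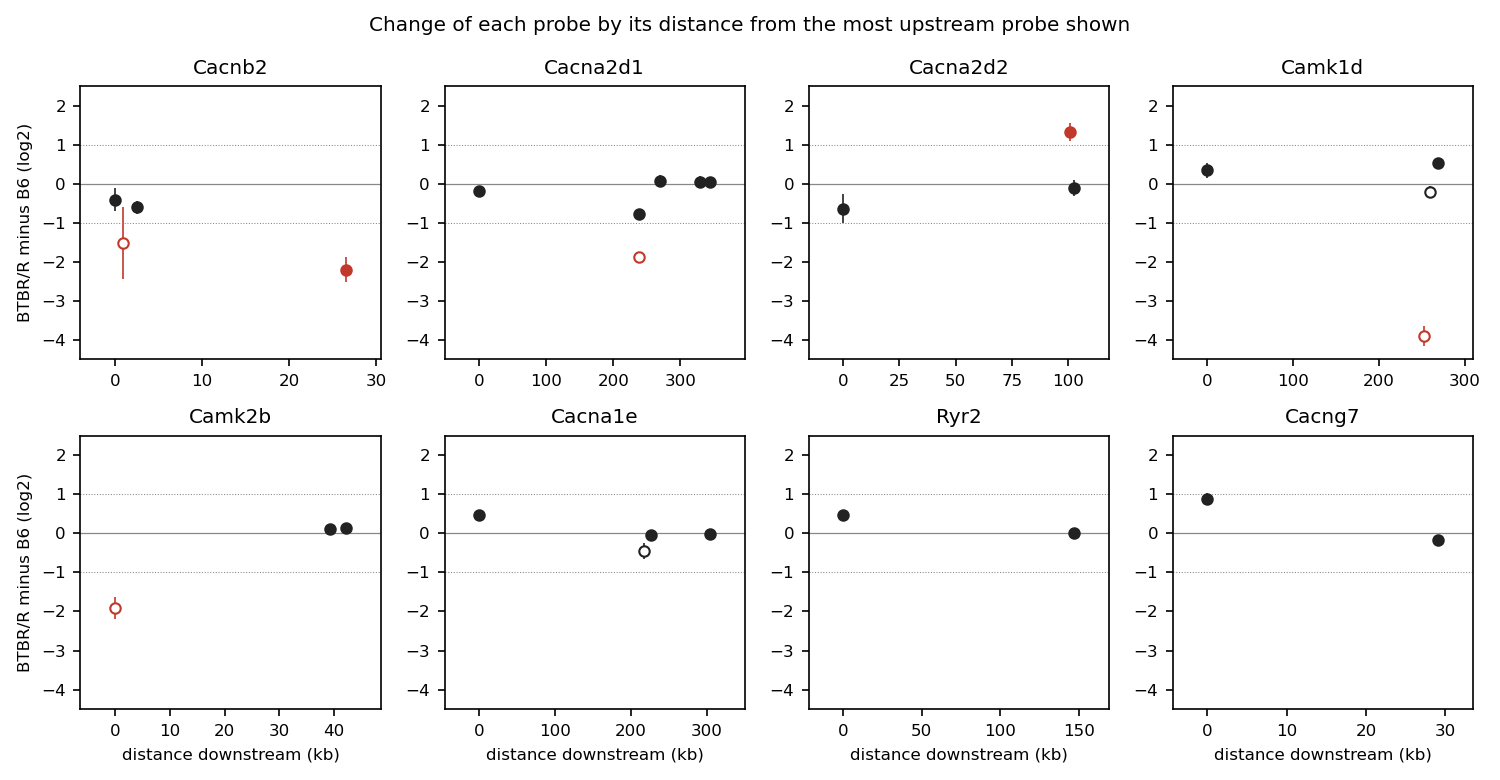
Change (BTBR/R minus B6, log2) of each probe detected on every array of a strain, by its distance in kb along the direction of transcription from the most upstream probe shown, for 8 member genes. Filled points were detected on all 8 arrays, open points not on every BTBR/R array, red points were called, and bars are 2 standard errors; in Cacna2d1, Camk1d and Camk2b the called probe is the lowest and the probes downstream of it lie at -0.22 or above.

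The gamma subunits include the AMPA receptor partners, or TARPs (Cacng2, Cacng3, Cacng4, Cacng5, Cacng7 and Cacng8), which carry glutamate receptors to the synapse, and Cacng1, a subunit of the muscle channel. Among their 9 probes detected on all 8 arrays 1 was higher and 4 were lower at an adjusted p below 0.05, beside 13.0% and 13.9% of all such probes. The counts were 1 and 1 when the arrays were scaled by their spike-in probes. Both probes of Cacng2, or stargazin, fell. The larger change was from -0.11, -0.17, -0.25 and -0.30 in the B6 mice to -0.69, -0.79, -0.55 and -0.47 in the BTBR/R mice (-0.42, SE 0.08, adjusted p = 0.0059), with no overlap, and the other was -0.29 (adjusted p = 0.015), which did not pass with spike-in scaling (-0.17) or a replicate block.

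Cacng8, a TARP of cortex and hippocampus, fell by 0.26 on the log2 scale at its only probe (adjusted p = 0.044). That fall was lost under 5 alternatives and when any mouse but BTBR/R replicate 4 was left out. Cacng3, a cortical TARP, gave -0.20 (adjusted p = 0.076). A Cacng4 probe read -1.98, -1.90, -1.99 and -2.00 in the B6 mice and -2.47, -2.94, -2.37 and -2.27 in the BTBR/R mice (-0.54, SE 0.14, adjusted p = 0.019), without overlap, while the brighter Cacng4 probe gave -0.14 and did not pass. The first of these was not past the threshold without B6 replicate 2 (adjusted p = 0.051), with a replicate block (0.061), with dim signals floored (0.066) or with spike-in scaling (0.078). Cacng5 gave 0.21 (adjusted p = 0.45).

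Cacng7 moved the other way at one probe. That probe, which spans 414 bases of the genome, read -1.36, -1.58, -1.64 and -1.48 in the B6 mice and -0.71, -0.50, -0.65 and -0.68 in the BTBR/R mice. It rose by 0.88 (SE 0.08, adjusted p = 6.0e-05), 1.84-fold, whereas the brighter probe 29.1 kb downstream gave -0.17 (adjusted p = 0.086), and the pair differed by 1.06 (adjusted p = 5.9e-07). Cacng1 was called lower at its only probe, which read -3.84, -3.92, -3.57 and -3.53 in the B6 mice and -5.95, -5.56, -5.65 and -5.73 in the BTBR/R mice (-2.01, adjusted p = 2.8e-05). None of the BTBR/R values was well above background and the mean of the B6 values did not exceed the mean BTBR/R detection limit, so no fold is given. The probe entered through the B6 arrays alone, and with dim signals set to the highest detection limit the change was -0.01 (adjusted p = 0.73). Of 6 muscle genes, 3 were detected on all 8 arrays and 1, the muscle creatine kinase Ckm, on none, and their summed signal was 0.79 to 1.12 in B6 mice and 0.99 to 1.23 in BTBR/R mice. Of these, the muscle myosin Myh4 was called higher in BTBR/R mice (1.45, adjusted p = 7.6e-05) and the skeletal actin Acta1 was lower (-0.38, adjusted p = 0.010), and their part in the Cacng1 result was not tested.

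Of the calmodulin genes, Calm3 was higher in BTBR/R mice at its only probe and Calm2 did not pass the test. Calm3 read 5.24, 5.37, 5.31 and 5.35 in the B6 mice and 5.77, 5.83, 5.89 and 5.81 in the BTBR/R mice. Every BTBR/R mouse was above every B6 mouse, and the rise was 0.51 (SE 0.05, adjusted p = 0.00011), 1.42-fold. Calm2 read 7.52, 7.70, 7.61 and 7.72 in the B6 mice and 7.48, 7.51, 7.61 and 7.61 in the BTBR/R mice, which overlapped (-0.08, SE 0.06, adjusted p = 0.35).

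Among the calmodulin kinases and their regulators, 5 of 25 probes detected on all 8 arrays were higher at an adjusted p below 0.05 and none was lower, beside 13.0% and 13.9% of all such probes. With spike-in scaling these counts were 11 and 0, and with a replicate block 2 and 0. Both probes of Camk1, the kinase activated by calmodulin and CaMKK that acts in axon growth, rose. The brighter one read 0.86, 0.80, 1.11 and 0.99 in the B6 mice and 1.67, 1.74, 1.75 and 1.72 in the BTBR/R mice (0.78, SE 0.07, adjusted p = 9.2e-05), and the other rose by 0.34 (adjusted p = 0.018, not passing with a replicate block or with dim signals floored). The groups did not overlap at either, and the rises were unequal, by 0.45 (adjusted p = 0.0074).

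Camk1d, a CaMKI isoform of neurons and granulocytes, gave opposite results along the gene. Its brightest probe read 2.64, 2.68, 2.73 and 2.80 in the B6 mice and 3.25, 3.20, 3.28 and 3.25 in the BTBR/R mice, a rise of 0.53 (SE 0.05, adjusted p = 9.3e-05), and the probe 269 kb upstream of it rose by 0.34 (adjusted p = 0.023), a rise lost with a replicate block, with the floor and without any of 4 mice (B6 replicates 2 and 3 and BTBR/R replicates 3 and 4). Between them lay the called probe, which read -1.76, -1.78, -1.47 and -1.97 in the B6 mice and -5.90, -5.48, -5.57 and -5.68 in the BTBR/R mice. It was detected on every B6 array and on no BTBR/R array. BTBR/R mice were 3.90-fold lower when taken against the detection limit of each array, and the measured change had a limma adjusted p of 3.3e-06. A further probe, 6.50 kb downstream of the called one, gave -0.22 (adjusted p = 0.059).

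Camk2b, the beta subunit of CaMKII, which ties the kinase to actin in spines, also had called probes among its dim ones. The probe at chr11:5911901-5911960 read -2.57, -2.70, -2.33 and -2.54 in the B6 mice and -4.65, -4.68, -4.20 and -4.25 in the BTBR/R mice. No BTBR/R array detected it, and BTBR/R mice were 2.25-fold lower when taken against the detection limit of each array. The measured change was called (limma adjusted p = 2.8e-05), a call lost with normexp background correction (-0.80). Another dim probe, detected on no array, was called the other way (1.40, adjusted p = 0.028). The 2 probes 39.3 and 42.2 kb downstream were detected on all 8 arrays and gave 0.12 and 0.13, with adjusted p of 0.084 and 0.075.

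Camk2a, the alpha subunit of CaMKII and a central enzyme of long-term potentiation, read 5.82, 5.95, 5.94 and 5.95 in the B6 mice and 5.86, 6.23, 5.85 and 5.83 in the BTBR/R mice. BTBR/R replicate 2 was the highest and the other BTBR/R mice lay within the B6 range (0.03, SE 0.10, adjusted p = 0.86). Camk2d was higher at 1 of its 4 probes detected on all 8 arrays (0.31, adjusted p = 0.032), and the other 3 gave -0.04 to 0.09. That rise was lost with a replicate block, with the floor and when any of 5 mice was left out (B6 replicates 2 and 3 and BTBR/R replicates 1, 2 and 3). Camk2g, Camk1g, Camk4, the nuclear kinase that acts on CREB, the upstream kinases Camkk1 and Camkk2, and the CaMKII inhibitors Camk2n1 and Camk2n2 held no probe that passed the test.

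Of the release channels, Ryr2, the ryanodine receptor of heart and neurons, was higher at its brightest probe, with 1.70, 1.75, 1.86 and 1.82 in the B6 mice and 2.27, 2.33, 2.26 and 2.20 in the BTBR/R mice. The groups did not overlap (0.48, SE 0.05, adjusted p = 0.00026), but the probe 147 kb downstream gave 0.00 (adjusted p = 0.99), and the pair differed by 0.48 (adjusted p = 0.00043). Itpr1, the main inositol trisphosphate receptor of neurons, was lower at 1 of 4 probes, with 1.62, 1.94, 1.95 and 1.88 in the B6 mice and 1.43, 1.54, 1.49 and 1.53 in the BTBR/R mice. Again the groups did not overlap (-0.35, SE 0.08, adjusted p = 0.012), and the brightest Itpr1 probe gave -0.02. With spike-in scaling the Itpr1 fall did not pass (-0.24, adjusted p = 0.11).

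Ryr3, the ryanodine receptor found in brain at low level, was lower at its brightest probe (-0.20, SE 0.05, adjusted p = 0.015). It did not pass with spike-in scaling (-0.09, adjusted p = 0.33) or with a replicate block (0.059). A dim Ryr3 probe was called at -1.05 (SE 0.31, adjusted p = 0.032), from -3.19, -3.23, -4.22 and -4.41 in the B6 mice to -5.14, -4.85, -4.67 and -4.61 in the BTBR/R mice. The lowest B6 mouse was only a little above the highest BTBR/R mouse, none of the BTBR/R values was well above background, no fold is given, and the call was lost with dim signals floored (-0.17, adjusted p = 0.42) and when B6 replicate 1 or 2 or any BTBR/R mouse was left out. Itpr2, the receptor of glia, and Ryr1, that of skeletal muscle, held no probe detected on all 8 arrays that passed.

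Calcineurin, the phosphatase that opposes the kinases, held no called probe. Of its catalytic genes, Ppp3ca read 6.60, 6.71, 6.61 and 6.76 in the B6 mice and 6.56, 6.53, 6.54 and 6.59 in the BTBR/R mice. The BTBR/R values were all just below the B6 values, but the change of -0.11 (SE 0.05, adjusted p = 0.12) did not pass. Ppp3cb, another catalytic gene, was lower at 1 of 3 probes (-0.20, adjusted p = 0.034). It did not pass with spike-in scaling (-0.08, adjusted p = 0.34), with a replicate block, with dim signals floored, or without B6 replicate 2 or 4 or any BTBR/R mouse. The regulatory subunit gene Ppp3r1 gave -0.13 and -0.10 without passing. A further catalytic gene, Ppp3cc, is not a member and was read with the other calcium genes below. At its probes detected on all 8 arrays it gave 0.15 (limma adjusted p = 0.040) and 0.17 (0.065).

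Unequal change between probes of one gene was a general feature of the arrays and of the members. Of 28 member genes with 2 or more probes detected on all 8 arrays, 12 changed unequally by limma's F test across the probes of a gene, against 21.9% of the 6508 genes tested. The lowest adjusted p were those of Cacna2d1 (3.2e-09), Cacna2d2 (1.5e-07), Cacnb2 (1.6e-07), Cacng7 (4.4e-07) and Cacna1e (4.3e-06). Ryr2, Cacna1d, Camk1, Ppp3cb, Camk2d, Cacna1a and Cacna1i followed, with adjusted p of 0.00034 to 0.032, and the last 2 did not pass with normexp background correction (0.075 and 0.13). Camk1d and Camk2b were not among the 12, and their called probes, which were not detected on all 8 arrays, did not enter that test.

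Called changes depended on the background correction. With limma's normexp correction in place of the software's processed signal, the called changes became -1.51 for Cacnb2 (A_55_P2793415), -1.75 for Camk1d and -1.15 for Cacna2d1, which were called under both. Cacna2d2 became 0.80 and Camk2b -0.80, both still with adjusted p below 0.05 but under 2-fold. Cacng1 became -0.53, Ryr3 -0.37 and the dimmer Cacnb2 probe -0.25.

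**Figure D4:**
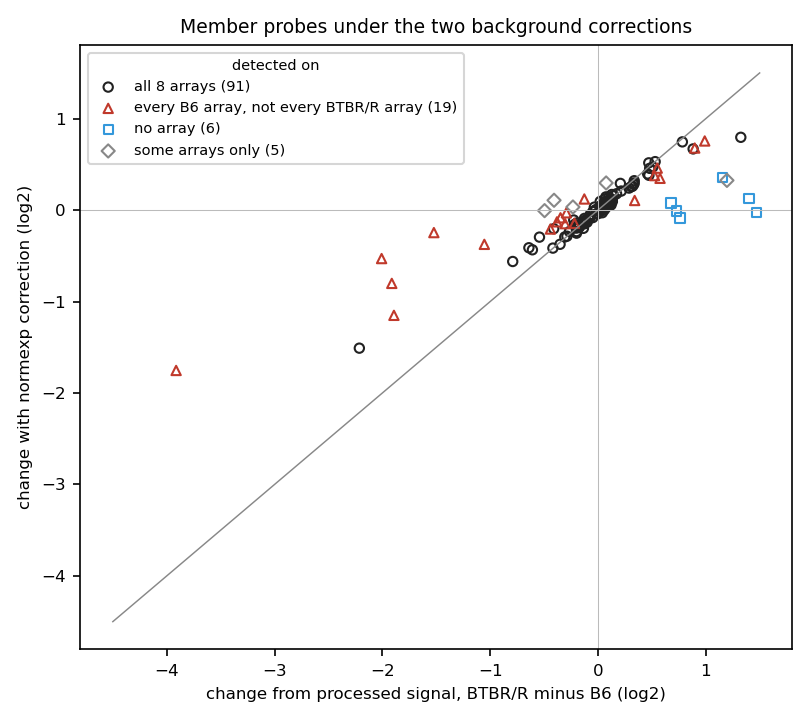
Change (BTBR/R minus B6, log2) of the 121 member probes from the software's processed signal (horizontal) and after normexp background correction (vertical), with the line of equality and symbols by the arrays on which a probe was detected. Among the probes detected on all 8 arrays, Cacnb2 and Cacna2d2 lie farthest from the line, and the called probes that some arrays did not detect move toward 0.

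Other genes of calcium handling were read from the same fit. Of 58 genes of calcium entry, extrusion, buffering and calmodulin or calcineurin signalling, measured by 124 probes, 97 probes were detected on every array. At an adjusted p below 0.05, 8 of the 97 were higher and 11 lower in BTBR/R mice, beside 26.9% of all probes detected on all 8 arrays, and 1 was called, lower, beside 1.04% called higher and 1.16% lower. That probe was for Stac2, an adaptor that binds voltage-gated calcium channels and slows their inactivation. It read 2.45, 2.57, 2.64 and 2.44 in the B6 mice and 0.75, 0.67, 0.78 and 0.78 in the BTBR/R mice, a 3.43-fold fall with no overlap (-1.78, SE 0.06, adjusted p = 4.0e-06), and it kept -1.72 with normexp correction. Atp2b2, a calcium pump of the plasma membrane, fell at one probe (-0.94, SE 0.09, adjusted p = 7.0e-05) and did not pass at its other (0.15). A probe of Creb1, the transcription factor that CaM kinases act on, was called lower (limma adjusted p = 0.00086). Its fold was 2.27 against the measured signal or detection limit of each array. It was detected on every B6 array and on 1 BTBR/R array. Of all probes detected on every B6 array but not on every BTBR/R array, 12.6% were called lower. The change became -0.50 with normexp correction and was not called, and none of the 3 Creb1 probes detected on all 8 arrays passed. The remaining 4 called probes, for Cacna1f, Calb2, Nfatc3 and Slc8a1, were higher in BTBR/R mice and detected on no array, a kind of probe of which 67.7% were called higher over the whole array.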

How the data were processed

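Tissue RNA of 8 mice was hybridized to 8 Agilent 1-colour arrays. The authors scanned them and deposited the Feature Extraction 10.7.3.1 output, with raw and background intensities, a processed intensity that is background subtracted, and flags for controls, outliers and signals well above background. A table of log2 values that the authors made with GeneSpring was deposited too. After 1 offset per array was removed, it equalled the log2 processed signal to within 0.01 at 99.97% or more of the probes, and it served as an alternative.

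Control and outlier spots were left out and spots of 1 probe averaged, which left 56605 probes. Log2 processed signals, less each array's 75th percentile, were compared with limma 3.58.1 (lmFit, eBayes, diffSplice) in R 4.3.3, adjusted by Benjamini-Hochberg over all probes. In simulated data for BTBR/R against B6 over 56583 probes, 199 of 200 changed probes and 2 unchanged ones were called. Tables and plots used Python 3.11.15, numpy 2.4.6, pandas 2.3.3 and matplotlib 3.10.9. Where a strain did not detect a probe on every array, the fold used its measured signal or the array's detection limit, whichever was higher. That limit is the dimmest signal flagged as detected on the array. Some brighter signals were not flagged, so such a fold is approximate and may be overstated. Precision is limited by 4 arrays per strain.

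The members and lists were chosen with earlier results of these data known. Values per mouse are given for each called member probe detected on every array of a strain, for the 10 further genes with the largest change that passed at a probe detected on all 8 arrays, and for Camk2a, Calm2, Calm3, Ppp3ca, Cacna1a and Cacna1c as familiar genes, of which Calm3 is also among the 10. The brightest probe of a gene is the one with the highest mean over the 8 arrays. Probe names and mm9 positions come from the scanner files, and all 46 symbols were in the RefSeq table. Alternatives were normexp correction (offset 50), quantile normalization, scaling to detected probes or to 7 spike-in probes, the authors' values, leaving out or flooring dim probes, the methods' t-test, a replicate block and leaving out each mouse. No genome sequence was used.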

Additional observations from a re-analysis of the deposited data

Results flagged for a closer look

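Of 40 sets of 4 mice examined for the named probes, 4 held a mouse set apart from the others of its strain by Dixon's test, where chance flags about 1 in 20. The called Cacna2d1 probe read -1.51 in B6 replicate 1, against -1.42 to -1.40 in the other B6 mice. The brightest Cacna1e probe read 2.02 in BTBR/R replicate 2, against 2.15 to 2.17. The brightest Camk2a probe read 5.82 in B6 replicate 1, against 5.94 to 5.95, and 6.23 in BTBR/R replicate 2, against 5.83 to 5.86.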

How the results depend on the processing

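In the main setting 11 member probes were called. There were 3 with normexp correction, 7 with quantile normalization and 5 with dim signals set to the highest detection limit. Among member probes detected on every array of a strain, 1 was called higher and 7 lower, beside 1.03% and 3.38% of all such probes, and since 6 of the 7 entered through the B6 arrays alone no direction is read from these counts. These became 0 and 3 with normexp correction, which also left 0 called higher among those detected on all 8 arrays, and 4 lower with the dim signals floored. The calls of other calcium genes numbered 6, and were 1 with normexp correction, 3 with quantile normalization, 2 when only detected probes were fitted and 2 with the floor. The cause was not tested. Of the 8 called probes, the Cacnb2 (A_55_P2793415), Camk1d and Cacna2d1 probes were called under every alternative and with every mouse left out. Camk2b and Cacna2d2 were lost with normexp correction, and Cacng1 with that and with the floor. The dimmer Cacnb2 probe and Ryr3 were lost under 5 and 6 alternatives and with 6 mice left out in turn. The sign of Camk2a at its brightest probe turned without B6 replicate 1 (-0.0049) and without BTBR/R replicate 2 (-0.070), with a range of -0.070 to 0.065 over the mice left out, and that of Calm2 turned with spike-in scaling (0.033), none of them past the threshold. Spike-in scaling raised the median change of probes detected on all 8 arrays from 0.00 to 0.12.

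Mice of the same number came from different strains, but their arrays lay in the same slide row, so the replicate block is also a block for row. Their deviations correlated at 0.00, -0.07, -0.04 and 0.16. These values were not set against those of differently numbered mice, so they do not exclude an effect of the row. A fit with a replicate block gave 8 called member probes, of which 1 was higher and 5 lower among those detected on every array of a strain (1.03% and 3.38% of all such probes without the block), and 12 genes with unequal probes, as in the fit without it. A block for slide was not run, since all arrays lay on 1 slide. Detection limits set what can be said of the 19 member probes detected on every B6 array but not on every BTBR/R array, and 4 arrays per strain limit the rest.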
